A study of Homo sapiens with 6 samples.

Results

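The genes described here make and break down the polyamines. They are SAT1, ODC1, AMD1, SRM, SMS, OAZ1, OAZ2, AZIN1, SMOX and PAOX, 10 genes of the 13021 identifiers used from the deposited expression table. They were chosen by function and with their levels and their knockdown over control ratios in view. Those levels and ratios are therefore given as a description, and no test was made on any of the 10 genes. All 10 were listed in each cell line, as were 10875 genes in all.

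Polyamines are small, positively charged molecules that bind nucleic acids and that dividing cells need. Ornithine decarboxylase, the product of ODC1, makes putrescine, and the enzymes encoded by SRM and SMS then extend it to spermidine and to spermine with a group supplied by the AMD1 product. Antizymes (OAZ1, OAZ2) bind ornithine decarboxylase and send it to the proteasome, and the antizyme inhibitor (AZIN1) binds the antizymes instead. Breakdown starts when SAT1 acetylates spermidine or spermine, after which PAOX oxidises the acetylated forms, while SMOX oxidises spermine directly. In the intestinal epithelium and its tumours ODC1 is known as a target of the transcription factor MYC. Much of the control of this pathway acts on translation and on protein stability, which RNA sequencing does not measure.

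RNA was sequenced from HCT116 (HCT116WT in the titles), HT29 and SW480, which are 3 established cell lines from human colorectal cancers. Each line was infected with lentivirus carrying either a short hairpin RNA (shRNA) against BZW2 or a non-targeting shRNA, and all cells, controls included, were selected with puromycin at 1 µg/ml to give stable lines. The aim stated for the series was to find genes and pathways that differ when BZW2 is depleted. A line gave 1 library per treatment, which makes 3 libraries in each of the 2 groups. The titles name 1 BZW2 hairpin, SH2, so loss of BZW2 and other effects of that hairpin cannot be told apart. The labels do not say whether a stable line was a clone or a pool, and they name no repeat cultures.

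BZW2 transcripts in the knockdown library were 17.3% of control for HCT116, 8.65% for HT29 and 13.3% for SW480. The shallowest library, the HCT116 knockdown, held 2187373 reads on listed genes, and the deepest, the HT29 control, held 9317444. The HCT116 pair stood apart. The log2 ratios of its 10875 genes had an SD of 1.58, against 0.64 in HT29 and 0.66 in SW480. Across genes these ratios had a Spearman correlation with transcript GC content of 0.693 for HCT116, 0.317 for HT29 and −0.05 for SW480, as a description of the libraries. Of 11 markers of colorectal epithelium 6 were listed in every line (EPCAM, CDH1, KRT8, KRT18, KRT19, CDX2) and 5 were not listed (KRT20, VIL1, CDX1, CDH17, LGALS4). The summed level of the 6 went from 4073 to 15435 CPM in HCT116, from 10536 to 9099 in HT29 and from 6538 to 6261 in SW480. Nearly all of that sum was keratin, such as KRT8 with 1420 and 5595 CPM in the HCT116 pair. EPCAM (319 and 217 CPM) and CDH1 (185 and 84.3 CPM) were lower in the HCT116 knockdown library, and both were lower in the knockdown of the other lines too. Markers of leukocytes, endothelium and liver were not listed. Of 4 fibroblast markers COL1A1 alone was listed, in 2 lines, at 1.53 to 6.49 CPM. The fewest reads that any listed gene had over the 2 libraries of a line were 21. A marker that is not listed is therefore not taken as not expressed. The part of the GC trend and of the keratin difference in the HCT116 values below was not tested. For the polyamine genes named below and the ratios of 2 of them, HCT116 values with the trend removed are given as well. Such values are not given for the genes nearest to SAT1 and to ODC1 in pattern.

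Levels are given as CPM, a gene's reads relative to all reads of the library on the genes listed in every line, scaled by the trimmed mean of M values (TMM). Comparisons between genes use CPM per kb of the longest protein-coding transcript. Ratios carry an exact 95% interval that covers counting error only, not the spread between cultures.

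The start of SAT1, the member with the lowest ratio in every line, is shown first. The gene lies on chrX:23783173-23786226 (GRCh38, plus strand). The 250 bases before its RefSeq start (GRCh38.p14, chrX:23782923-23783172, plus strand) are printed 5′ to 3′ with each CCAAT, read on either strand, in capitals:
SAT1 upstream: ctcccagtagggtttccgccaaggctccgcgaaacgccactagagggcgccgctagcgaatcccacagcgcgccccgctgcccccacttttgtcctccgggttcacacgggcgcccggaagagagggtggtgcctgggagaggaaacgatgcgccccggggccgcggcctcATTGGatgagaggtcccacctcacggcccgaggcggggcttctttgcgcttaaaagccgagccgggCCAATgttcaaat
These copies begin 79 and 13 bases before the start. The window of 300 bases around the start was searched on both strands for the E-box (letters CACGTG), the TATA box (letters TATAA), the CCAAT box, the GC box (letters GGGCGG), the start of a cyclic AMP element (letters TGACGT), a composite element of ATF4 (letters TGATGNAAT), the core of the antioxidant element (letters TGACNNNGC), and the cores of the hypoxia element (letters ACGTG, which overlap the E-box, or letters GCGTG). The CCAAT box was the one motif of these found in the SAT1 window, and 34.6% of 35116 RefSeq windows of that length hold it. A match of letters describes the sequence and is no evidence of binding.

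The E-box CACGTG, the letters that MYC with its partner MAX binds, was found in windows of ODC1 and SRM and in 7.26% of all windows. The ODC1 matches lie at its second RefSeq start, and their 30-base surroundings are shown on the gene's minus strand with the E-box in capitals:
ODC1 E-box 1, chr2:10448024-10448053: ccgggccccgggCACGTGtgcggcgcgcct
ODC1 E-box 2, chr2:10447990-10448019: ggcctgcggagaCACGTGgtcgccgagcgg
SRM E-box, chr1:11060200-11060229: ccggccgggcccCACGTGgcccctggagcg
The first ODC1 E-box begins 29 bases before that start, and the SRM E-box begins 199 bases before the SRM start on the minus strand. RefSeq windows were searched for 7 of the 10 genes, and AZIN1, SMOX and PAOX were not searched.

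SAT1 transcripts, which encode the acetyltransferase that starts polyamine breakdown, were lower in the knockdown library of each line. In HCT116 the level was 2046 CPM with the non-targeting hairpin and 38.9 CPM with the BZW2 hairpin (11976 and 72 reads). In HT29 it was 125 and 50.7 CPM (1152 and 451 reads). In SW480 it was 2904 and 453 CPM (14886 and 2955 reads). The groups overlapped, because the SW480 knockdown library stood above the HT29 control, while within each line the knockdown library was the lower one. SAT1 in the knockdown was 1.9% of control in HCT116 (1.49 to 2.40%), 40.5% in HT29 (36.2 to 45.2%) and 15.6% in SW480 (15 to 16.2%). The intervals of the lines did not overlap, so the size of the difference varied among lines by more than counting error. As fold differences these are 52.6-fold lower, 2.47-fold lower and 6.40-fold lower. Counted from the lowest ratio among 10875 genes, SAT1 had rank 9 for HCT116, 383 for HT29 and 36 for SW480. The mean log2 ratio was −3.23 ± 2.26 (SD, n = 3 lines), and without HCT116 it was −1.99. With the trend on GC content and length removed, the log2 ratios were −4.99 for HCT116, −1.40 for HT29 and −2.88 for SW480. In bulk RNA, fewer cells that hold a transcript and less transcript per cell cannot be told apart.

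The control libraries themselves differed in SAT1. SW480 had 23.2-fold the level of HT29, and HCT116 lay below SW480 by 1.42-fold. Per kb, SAT1 held rank 15 from the highest among 10875 genes in the SW480 control (2727 CPM per kb), 25 in the HCT116 control (1921) and 488 in the HT29 control. In the knockdown libraries its rank was 129 in SW480, 2115 in HCT116 and 1468 in HT29. The line with the lowest SAT1 control level was also the one with the smallest difference.

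**Figure D1:**
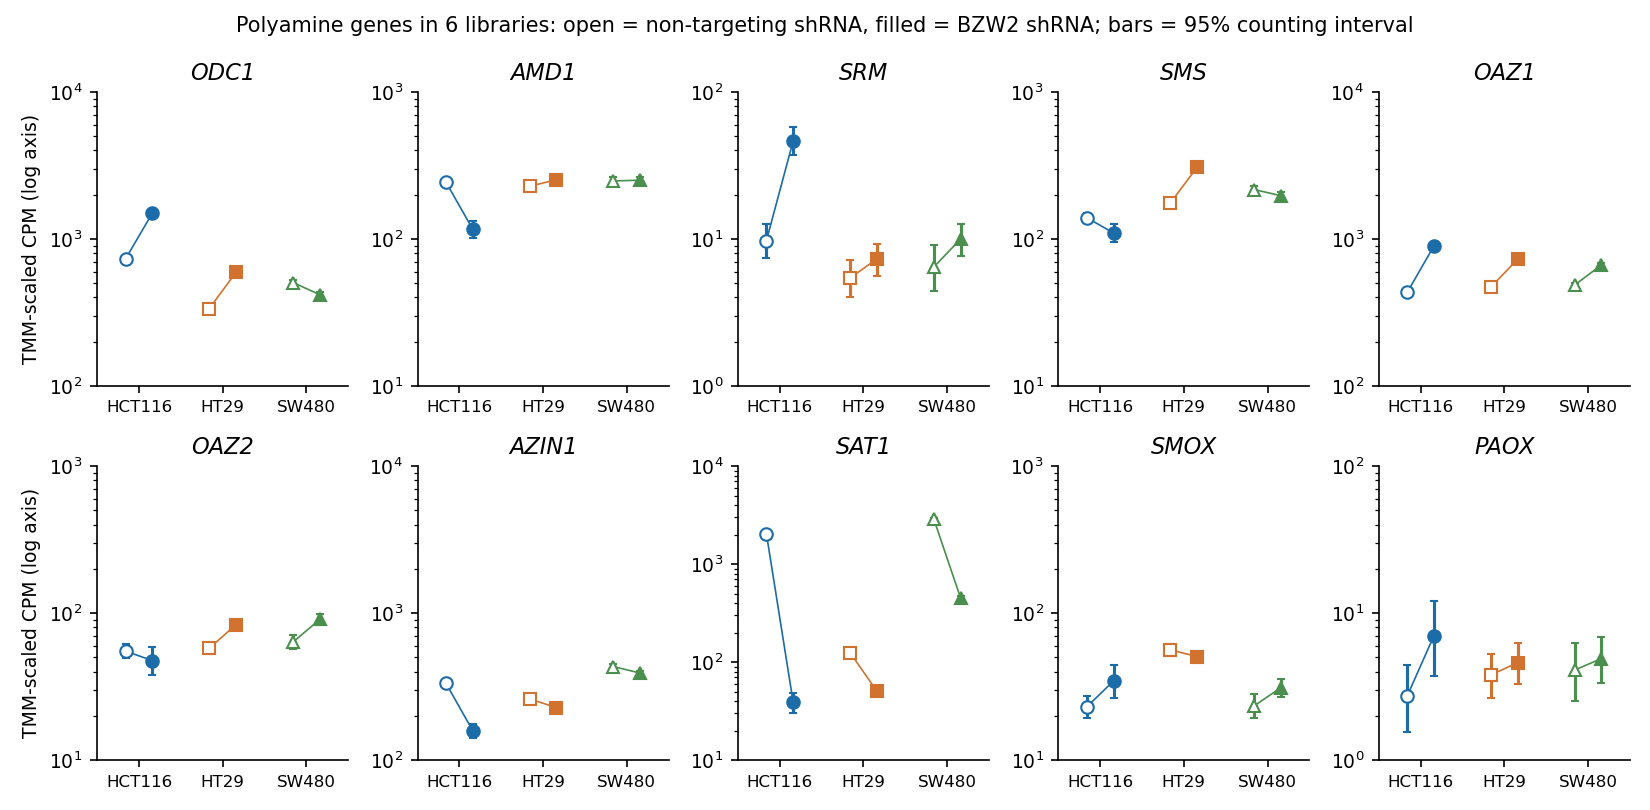
Level of each of the 10 genes in the 6 libraries, as TMM-scaled CPM on log axes that differ between panels (open, non-targeting shRNA; filled, BZW2 shRNA; bars, exact 95% counting interval). SAT1 spans from 38.9 CPM in the HCT116 knockdown to 2904 CPM in the SW480 control, while AMD1 controls sit between 228 and 248 CPM.

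The genes nearest to SAT1 in pattern were found by the Euclidean distance of the 3 log2 ratios, among 6843 genes with at least 100 reads in each control. They were ABCA5, a transporter of the ABC family, at a distance of 1.33, IL1RAP, a co-receptor for interleukin 1, at 1.5, SLC7A11, the cystine and glutamate exchanger, at 1.52, SMIM14 at 1.65 and KLHL24 at 1.79. The log2 ratios of IL1RAP, for one, were −4.22 for HCT116, −1.41 for HT29 and −2.86 for SW480. In HCT116, where SAT1 was at −5.72, IL1RAP was the furthest from it of these genes. In SW480, where SAT1 was at −2.68, ABCA5 was at −1.51, SLC7A11 at −1.97, KLHL24 at −1.37 and SMIM14 at −1.72. In HT29, where SAT1 was at −1.30, the other genes lay further from it than IL1RAP did. There ABCA5 was at −1.64, SLC7A11 at −0.86, KLHL24 at −0.51 and SMIM14 at −0.07.

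The other breakdown genes among the 10 did not share the SAT1 pattern of low ratios. Outside the 10, the breakdown gene SAT2 stood at 108% of control in HCT116 (66.6 to 171%), 36.8% in HT29 and 64.4% in SW480. With the trend removed these were 60.2%, 30.6% and 61.7%, at few reads (59 and 21 in HT29). Its limma adjusted p was 0.558. SMOX, the spermine oxidase (chr20:4120980-4187747, plus strand), had 23.1 CPM in the HCT116 control and 34.6 in its knockdown. It had 56.3 and 50.7 CPM in HT29, and 23.4 and 31.2 CPM in SW480. The knockdown library was thus at 150% of control in HCT116 (110 to 203%) and 133% in SW480 (106 to 168%). In HT29 it was at 90.0%, with an interval that held 100% (79.2 to 102%). The HCT116 direction reversed with the GC and length trend removed, from a log2 ratio of 0.59 to −0.68. Among controls SMOX was highest in HT29, at 2.44-fold the HCT116 level, and the intervals of HCT116 and SW480 overlapped.

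PAOX, the oxidase of acetylated polyamines (chr10:133379234-133391694, plus strand), was the lowest of the 10 genes per kb in all 6 libraries. It had 16 and 13 reads in the HCT116 control and knockdown, 35 and 41 in HT29, and 21 and 32 in SW480. Its levels were 2.73 and 7.03 CPM, 3.80 and 4.61 CPM, and 4.10 and 4.91 CPM. At this depth no difference was detectable in HT29 (121% of control, 75.3 to 196%) or SW480 (120%, 67.0 to 219%). In HCT116 the knockdown stood at 257% of control (114 to 570%), and the log2 ratio of 1.36 there was 0.11 with the trend removed. The protein-coding AL360181.3 overlaps PAOX on the same strand and is not listed in the table, so reads shared by both are uncertain.

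ODC1, the gene of the first synthesis enzyme (chr2:10439968-10448504, minus strand), was higher in the knockdown library of HCT116 and HT29 and lower in that of SW480. Its level was 733 CPM in the HCT116 control and 1501 CPM in the knockdown (4294 and 2777 reads, the knockdown library being the shallower one). In HT29 it was 336 and 595 CPM, and in SW480 505 and 418 CPM. The knockdown was at 205% of control in HCT116 (195 to 215%), 177% in HT29 (169 to 185%) and 82.8% in SW480 (78.4 to 87.4%). No interval held 100%, so the lines differed in direction beyond counting error, and the mean log2 ratio was 0.53 ± 0.70 (SD, n = 3 lines). With the trend removed the log2 ratios were 0.51, 0.76 and −0.30. SNORA80B, a small nucleolar RNA that lies inside ODC1 on the same strand, had 31 and 242 reads in the HCT116 pair, 79 and 80 in HT29, and 39 and 20 in SW480. The split of reads between it and ODC1 is uncertain, since the counting method is not given in the sources used here, and its part in the ODC1 values was not tested.

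The nearest genes to ODC1 by the same distance were RAD54L2 at 0.08, MFSD3 at 0.16, PHF13 at 0.18, RFXANK at 0.19 and an identifier with no symbol, ENSG00000130723, at 0.21. Each lay nearer to ODC1 than any of the compared genes lay to SAT1. Nothing is read from this, because SAT1 lies in the lower tail of the ratios, where few genes lie. In HCT116, HT29 and SW480, 0.0736%, 3.51% and 0.322% of genes were below SAT1, and 74.9%, 93.6% and 33.5% below ODC1. The log2 ratios of RAD54L2 were 0.99, 0.77 and −0.25.

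AMD1, the S-adenosylmethionine decarboxylase gene (chr6:110874770-110895713, plus strand), varied least among the controls of the synthesis genes. Its level went from 243 to 116 CPM in HCT116, from 228 to 253 CPM in HT29 and from 248 to 251 CPM in SW480. The HCT116 knockdown library was low and the other 5 libraries lay close together. The ratio was 47.8% of control in HCT116 (41.2 to 55.2%), 111% in HT29 (104 to 118%) and 101% in SW480 (93.9 to 109%). AMD1 transcripts have a GC content of 38.0%, the lowest of the 10 genes, and with the trend removed the HCT116 log2 ratio reversed from −1.06 to 0.31. AMD1 has 4 annotated pseudogenes, to which reads of near-identical sequence could be assigned.

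SRM, the spermidine synthase gene (chr1:11054584-11060024, minus strand), was higher in the knockdown library of each line, at few reads. Counts were 57 and 86 reads in HCT116, 50 and 65 in HT29, and 33 and 65 in SW480. Levels were 9.74 and 46.5 CPM, 5.43 and 7.30 CPM, and 6.44 and 9.97 CPM. The HCT116 knockdown library stood far above the other 5. The ratio was 478% of control in HCT116 (338 to 680%) and 155% in SW480 (100.4 to 243%). In HT29 it was 134%, with an interval that held 100% (91.6 to 198%). SRM has the highest GC content of the 10 genes, 63.7%, and its HCT116 log2 ratio of 2.26 became 1.02 with the trend removed. It has 2 annotated pseudogenes.

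SMS, the spermine synthase gene (chrX:21940573-21994835, plus strand), was higher in the knockdown of HT29 alone. Its level was 140 and 110 CPM in the HCT116 control and knockdown, 176 and 309 CPM in HT29, and 217 and 197 CPM in SW480. Ratios were 78.6% of control in HCT116 (67.1 to 91.8%), 175% in HT29 (165 to 186%) and 90.7% in SW480 (83.7 to 98.4%). The mean log2 ratio was 0.11 ± 0.62 (SD, n = 3 lines). With the trend removed the HCT116 value was −0.05. In HT29 SMS and ODC1 were thus at nearly the same multiple of control, which was not so in HCT116.

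**Figure D2:**
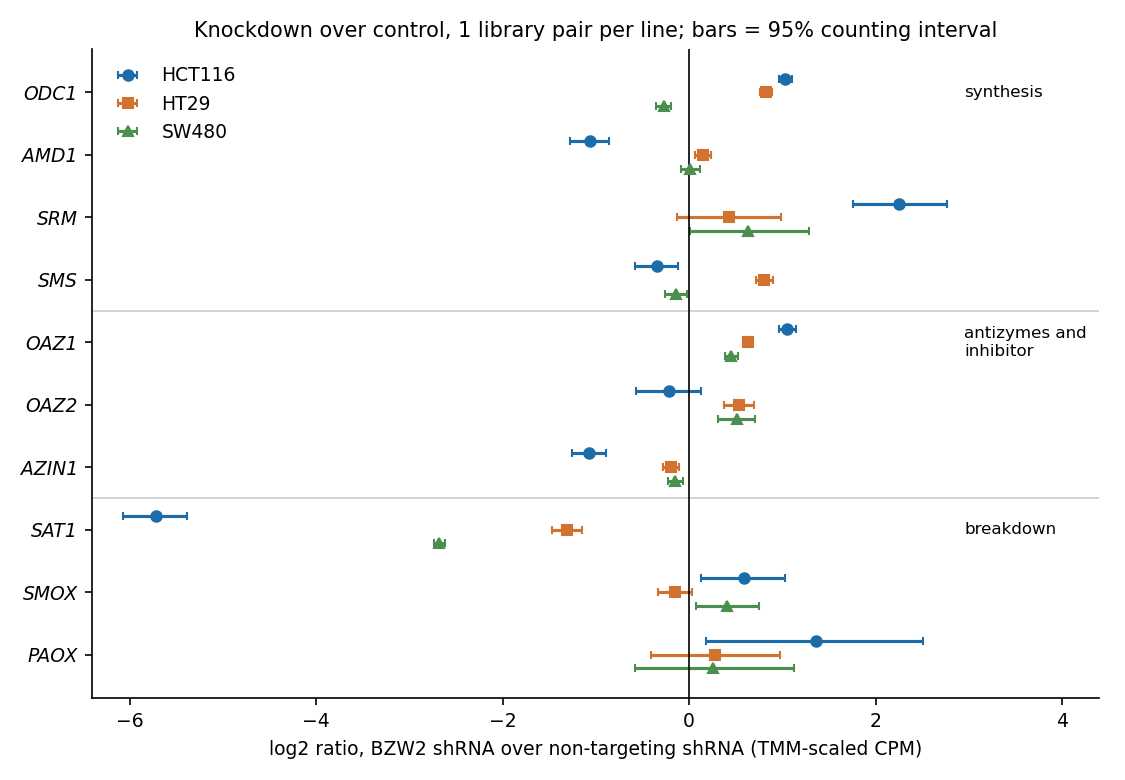
Log2 ratio of BZW2 shRNA over non-targeting shRNA for each gene in each line, from TMM-scaled CPM, with exact 95% counting intervals and 1 library pair per line. SAT1 lies left of 0 in all lines, at −5.72 for HCT116, −1.30 for HT29 and −2.68 for SW480, and OAZ1 lies right of 0 in all lines.

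Of the genes that act on ornithine decarboxylase protein, the main antizyme gene OAZ1 (chr19:2269509-2273490, plus strand) was higher in the knockdown library of each line. Its level was 432 and 897 CPM in HCT116, 470 and 728 CPM in HT29, and 485 and 664 CPM in SW480. The groups did not overlap, since the 3 controls lay below all 3 knockdown libraries. The share of all genes with such a separation was not counted, so nothing is read from it. The controls spanned 1.12-fold between lines. The knockdown was at 207% of control in HCT116 (195 to 221%), 155% in HT29 (149 to 161%) and 137% in SW480 (130 to 144%). The mean log2 ratio was 0.71 ± 0.31 (SD, n = 3 lines), and with the trend removed the values were 0.37, 0.40 and 0.38. OAZ1 overlaps the protein-coding genes AC005258.1 on the same strand and JSRP1 on the opposite strand, and the table lists neither.

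OAZ2, a second antizyme gene (chr15:64687573-64703281, minus strand), was higher in the knockdown of HT29 and SW480. It had 55.2 and 47.6 CPM in HCT116, 57.8 and 83.7 CPM in HT29, and 63.6 and 90.7 CPM in SW480. Ratios were 145% in HT29 (129 to 162%) and 143% in SW480 (124 to 164%), and the interval of HCT116 held 100% (86.2%, 67.3 to 109%). With the trend removed the HCT116 log2 ratio went from −0.21 to −0.79.

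AZIN1, the antizyme inhibitor gene on chromosome 8 (minus strand), was lower in the knockdown library of each line. Its level was 333 and 158 CPM in HCT116, 261 and 228 CPM in HT29, and 433 and 391 CPM in SW480. Ratios were 47.6% of control in HCT116 (41.9 to 53.8%), 87.6% in HT29 (82.5 to 92.9%) and 90.3% in SW480 (85.3 to 95.7%). The HCT116 difference was the largest of these, and with the trend removed its log2 ratio went from −1.07 to −0.14, with −0.04 in HT29 and −0.16 in SW480. The ratio of OAZ1 to AZIN1, in which the scaling of a library cancels, was higher in the knockdown by 4.36-fold in HCT116, 1.77-fold in HT29 and 1.51-fold in SW480. With the trend removed these were 1.42-fold, 1.35-fold and 1.45-fold, so that HCT116 was no longer the highest. The ratio of OAZ1 to ODC1 was 1.01-fold the control in HCT116 (0.94 to 1.10), 0.88-fold in HT29 (0.83 to 0.93) and 1.65-fold in SW480 (1.54 to 1.78), and 0.91-fold, 0.78-fold and 1.60-fold with the trend removed.

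The order of the 10 genes per kb shows how the balance within a library differed. SAT1 led in the HCT116 control (1921 CPM per kb) and the SW480 control (2727). In the HT29 control and in all 3 knockdown libraries OAZ1 led, at 410 CPM per kb in the HT29 control and 781, 634 and 578 in the HCT116, HT29 and SW480 knockdowns. OAZ1 and ODC1 stood next to each other in 5 of the 6 orders. Below them, OAZ2, SMOX and PAOX kept this order in every library. The lead of OAZ1 and the place of OAZ2 depend on the transcript length used. By the longest transcript of any type, ODC1 led in the HCT116 knockdown, at 566 CPM per kb against 317 for OAZ1. SAT1 then led in the SW480 knockdown, at 400 against 234 for OAZ1, and OAZ2 lay below SMOX in every library.

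The ratio of SAT1 to ODC1 sets breakdown against synthesis within 1 library, and library scaling cancels in it. In the controls SAT1 per kb was 6.95 times ODC1 in HCT116, 0.927 times in HT29 and 14.3 times in SW480. In the knockdown libraries it was 0.0646 times in HCT116, 0.212 times in HT29 and 2.70 times in SW480. SAT1 thus stood above ODC1 in the HCT116 control and below it in the knockdown, stayed below in HT29 and stayed above in SW480. The ratio was lower in the knockdown by 108-fold in HCT116 (84.9 to 138), by 4.37-fold in HT29 (3.88 to 4.92) and by 5.30-fold in SW480 (4.96 to 5.67). After removal of the GC and length trend these were 45.1-fold, 4.49-fold and 5.96-fold, outside the counting interval for HCT116 and SW480. In SW480 the difference came from SAT1, since ODC1 was also lower there. Over all members of each branch, the sum of SAT1, SMOX and PAOX per kb was 4.48 times that of ODC1, AMD1, SRM and SMS in the HCT116 control and 0.0793 times in the knockdown. In HT29 these values were 0.490 and 0.152, and in SW480 7.1 and 1.28. SAT1 made up 99.4% of the breakdown sum in the HCT116 control, 81.7% in HT29 and 99.6% in SW480, and 66.2%, 66.2% and 96.4% in the knockdown libraries.

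**Figure D3:**
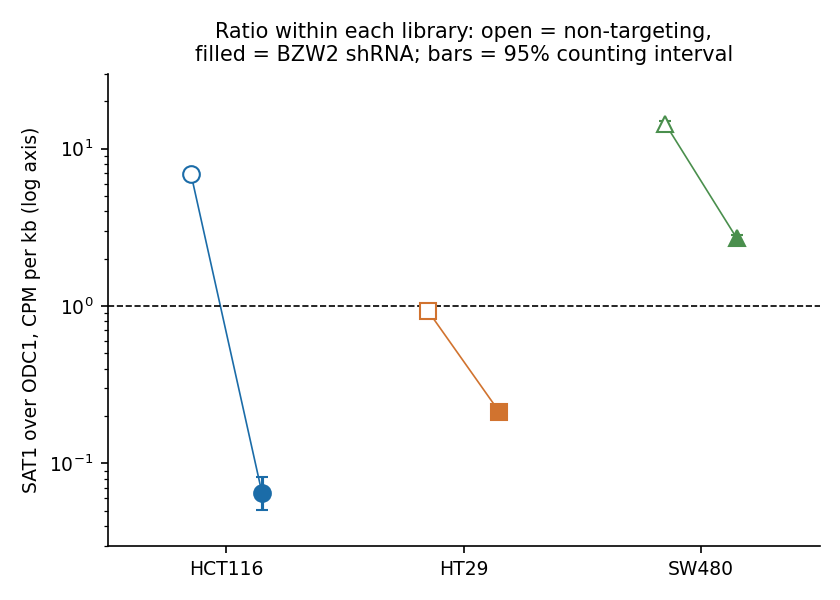
SAT1 over ODC1 in CPM per kb in each library, on a log axis, with 1 library per point (open, non-targeting; filled, BZW2 shRNA; bars, exact 95% counting interval; dashed line, equal levels). All 3 lines slope down, and HCT116 goes from 6.95 to 0.0646 across the line of equal levels.

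Counts over the 10 genes are given with those over all genes, and nothing is read from them because the ratios were in view when the genes were chosen. Counted genes had at least 5 CPM in the higher library of the pair. All 10 reached this in HCT116, and 9 did in HT29 and in SW480, where PAOX did not. In HCT116 3 genes were at least 2-fold lower (SAT1, AMD1, AZIN1), against 29.3% of genes, and 4 were at least 2-fold higher (SRM, PAOX, OAZ1, ODC1), against 26.9%. In HT29 SAT1 alone was at least 2-fold lower, where 6.2% of genes were, and none was 2-fold higher, where 3.85% were. In SW480 SAT1 alone was at least 2-fold lower, where 7.22% of genes were, and none was 2-fold higher, where 4.59% were. SAT1 and AZIN1 were lower in all 3 lines, as were 21.8% of genes. SRM and OAZ1 were higher in all 3 lines, as were 22.7% of genes, and PAOX was too, in HT29 and SW480 below the level for counting. SAT1 was at least 2-fold lower in all 3 lines, as were 90 genes or 0.932%, and no member was at least 2-fold higher in all 3, as 1.11% of genes were. The median log2 ratio of the 10 genes was 0.19 for HCT116, 0.35 for HT29 and 0.14 for SW480, beside −0.06, 0.01 and −0.02 over all genes.

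**Figure D4:**
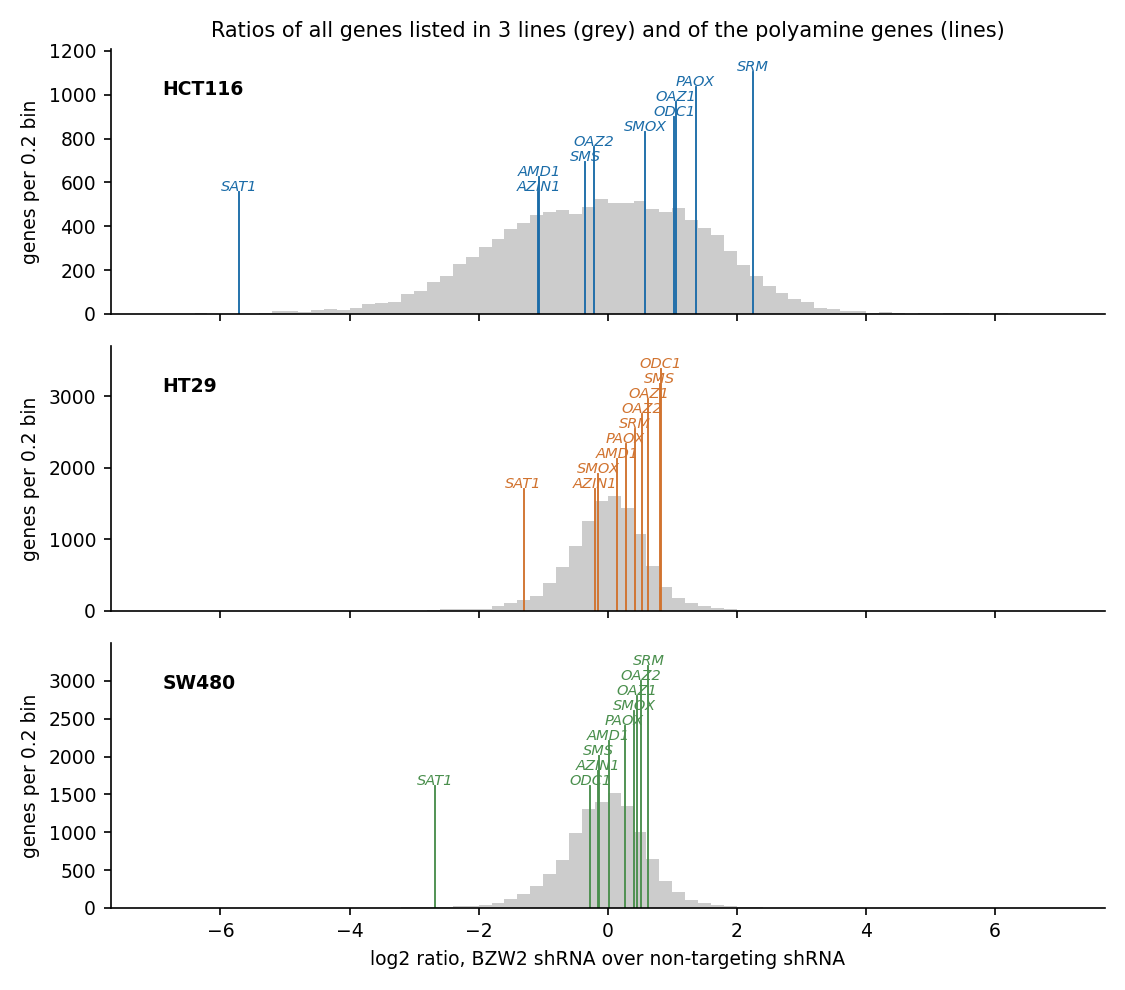
Log2 ratios of the 10875 genes in each line as grey histograms with bins of 0.2, and the 10 genes as labelled vertical lines whose height carries no value. The HCT116 histogram is the widest, with an SD of 1.58, and SAT1 lies in the left tail in each panel.

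Other genes of polyamine metabolism were taken from a list of 40 that feed the pathway, use its products, move polyamines or regulate it. Of these 29 were listed in all 3 lines, 2 in part (AZIN2, CAV1) and 9 were not listed. They were tested with all 10875 genes by limma with terms for line and treatment, and 0 passed a Benjamini-Hochberg adjusted p of 0.05, as did 0% of all genes in either direction. At an unadjusted p under 0.05 limma had 3 lower and 3 higher, beside 7.04% of all genes lower and 6.59% higher. On the recovered reads edgeR called 0, and DESeq2 called 2, both lower, beside 1.23% of all genes lower and 1.01% higher. Without HCT116 limma called 2 lower, beside 1.39% of all genes lower and 1.72% higher. By direction alone 6 were higher in all lines and 6 lower, 20.7% each of the 29, and 17 were mixed. Beside these stand 22.7% and 21.8% of the 9656 genes with at least 5 CPM in the higher library of each line. That filter was not applied to the 29, so the shares are not strictly alike. The median limma log2 change was 0.07, and over all genes it was 0.02.

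The list has ARG2 and MXD1 as the genes at least 2-fold lower in each line, 2 of the 29. Among the 9656 genes with at least 5 CPM in the higher library of each line, 0.932% were. The list was chosen with earlier results of these data known, so nothing is read from this count. ARG2, the mitochondrial arginase that makes ornithine, had 37.1 and 7.57 CPM in the HCT116 control and knockdown, 20.3 and 7.41 CPM in HT29, and 44.5 and 5.68 CPM in SW480. The knockdown libraries lay below all controls, and again the share of all genes with such a separation was not counted. Its log2 change was −2.15 ± 0.47 (SE), with an adjusted p of 0.250 by limma. Leaving out a line, limma gave an adjusted p of 0.0118 without HCT116, 0.216 without HT29 and 0.291 without SW480. After removal of the trend ARG2 was at 22.9% of its control for HCT116, 35.1% for HT29 and 11.7% for SW480. MXD1, a partner of MAX that competes with MYC, had 21.2 and 4.87 CPM in HCT116, 96.2 and 43.8 CPM in HT29, and 31.2 and 7.83 CPM in SW480. The HT29 knockdown library stood above the other controls, so the groups overlapped. Its log2 change was −1.67 ± 0.43 (SE), with an adjusted p of 0.263 by limma, and with 0.0173 without HCT116, 0.498 without HT29 and 0.328 without SW480. MXD1 after removal of the trend was at 46.1% of its control for HCT116, 50.5% for HT29 and 25.7% for SW480, so its ratio in HT29 was then short of 2-fold.

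The genes of the hypusine pathway, which builds a modified residue from spermidine into EIF5A, were all listed. EIF5A stood at 283% of control for HCT116, 159% for HT29 and 167% for SW480. DOHH, which completes hypusine, stood at 675%, 122% and 208%. The other genes of the pathway did not share this direction in every line. DHPS, which starts hypusine, stood at 183%, 94.9% and 80.2%, and EIF5A2, a relative of EIF5A, at 37.5%, 75.6% and 124%. With the trend removed the HCT116 values were 147% for EIF5A, 268% for DOHH, 93.3% for DHPS and 169% for EIF5A2. The DHPS and EIF5A2 values thus changed direction there, and EIF5A2 did so in HT29 as well, at 128%. The limma adjusted p was 0.327 for EIF5A and 0.339 for DOHH, so neither passed. SLC25A15, the mitochondrial ornithine carrier, stood at 296%, 170% and 222%, with an adjusted p of 0.322, and at 263% in HCT116 with the trend removed. MXI1, another MAX partner, stood at 15.8%, 55.6% and 44.1%, with an adjusted p of 0.283, and at 22.7% in HCT116 with the trend removed. EIF5A, DOHH, SLC25A15 and MXI1 were singled out after their unadjusted p values were seen, and MYC, DHPS and EIF5A2 were also named with their values known. MYC stood at 230% of control for HCT116, 74.8% for HT29 and 59.7% for SW480 (limma adjusted p 0.947), beside 205%, 177% and 82.8% for ODC1. The HCT116 value of MYC was 133% with the trend removed. MYC and ODC1 were both higher in the HCT116 knockdown and both lower in the SW480 knockdown. In the HT29 knockdown MYC was lower and ODC1 was higher. Whether MYC had a part in the ODC1 ratios was not tested.

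**Figure D5:**
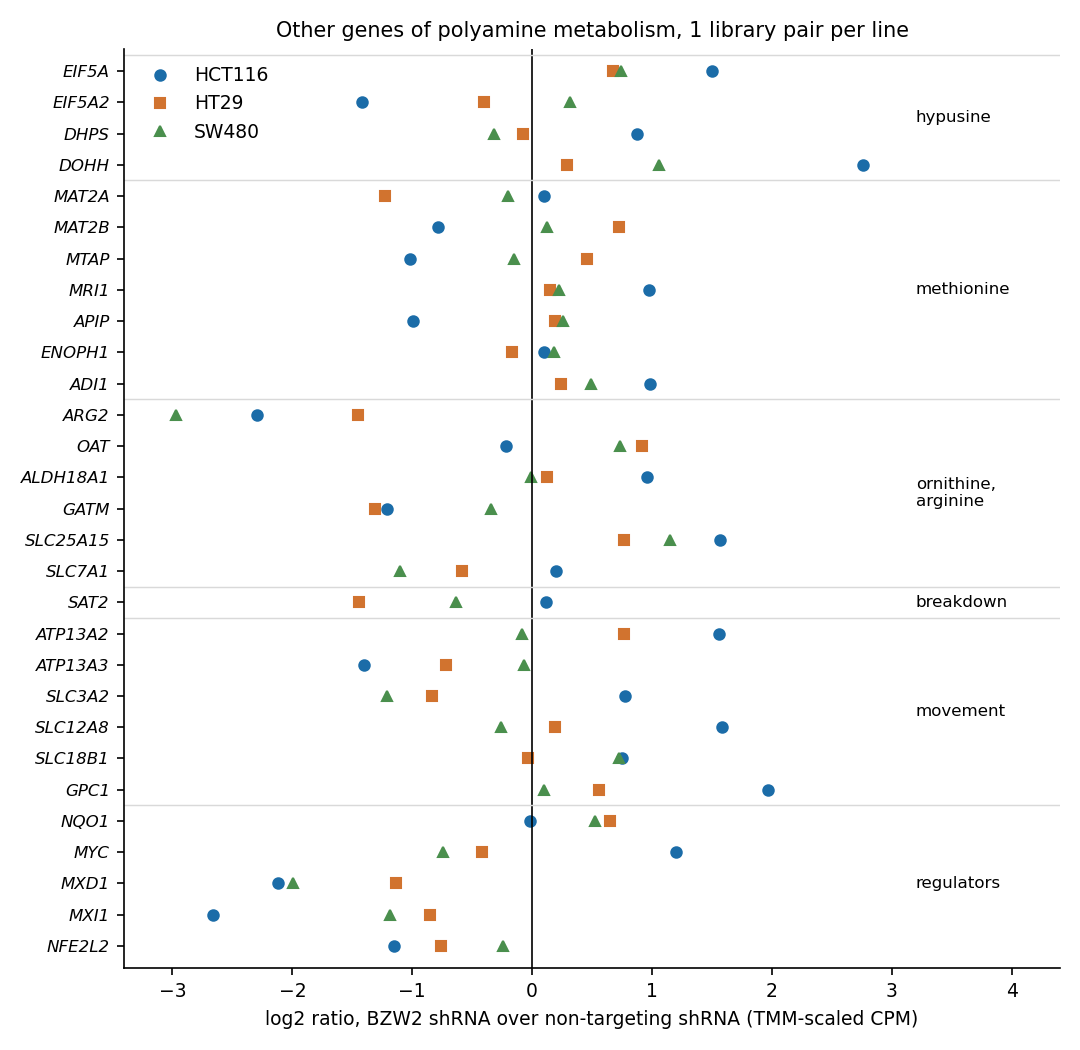
Log2 ratio of BZW2 shRNA over non-targeting shRNA in each line for the 29 other polyamine genes listed in all lines, grouped by role, with 1 library pair per point. ARG2 and MXD1 lie beyond −1 in every line, and no gene on the plot passed the limma test over all genes.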

How the data were processed

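Per the submitters' processing notes, bcl2fastq 2.17, STAR 2.5.2b and DESeq were used with GRCh38; the sources used here do not give counter, annotation or strandedness. The authors deposited a normalised signal, reads divided by a size factor set within each line. All values were whole reads within 0.1 read after division by the smallest step (in the SW480 control, a value of 2 reads). Of 13040 identifiers 19 repeated ones were left out. Symbols matched 13003 identifiers and GENCODE 29 matched 13018. Levels and ratios came from the recovered reads with TMM factors (edgeR 4.0.16, R 4.3.3) and exact Clopper-Pearson intervals.

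The test over all genes was limma 3.58.1 on log2 of the deposited value plus 1, a scale that understates the change of low genes, with line and treatment as terms, 2 residual and 7.26 prior degrees of freedom, two-sided, on genes with a value of 1 or more in 3 or more libraries. The fits were tested on simulated data. The libraries are paired by cell line, and lines are the replicates. The members, the gene lists and the rules were chosen with earlier results of these data known. Named genes were the 10 members, listed genes passing limma or 2-fold in each line, and the 5 genes nearest to SAT1 and to ODC1. EIF5A, EIF5A2, DHPS, DOHH, SLC25A15, MXI1, MYC and SAT2 were named outside this rule, with their values known. GC and length trends were splines fitted per line. Promoters are from RefSeq. Windows on chromosome 8, where AZIN1 lies, were not used for the members, and SMOX and PAOX were not matched.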

Additional observations from a re-analysis of the deposited data

Results flagged for a closer look

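For 3 of the 10 genes the lines had ratios in opposite directions with 95% counting intervals that did not hold equality. Whether the lines differ was not tested, because each line has 1 library per treatment. ODC1 had a log2 ratio of 1.03 in HCT116 and 0.82 in HT29, and −0.27 in SW480. SMS had 0.81 in HT29, and −0.35 in HCT116 and −0.14 in SW480. AMD1 had 0.15 in HT29 and −1.06 in HCT116, and this contrast was absent with the trend on GC content and length removed, where AMD1 had 0.53 and 0.31.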

How the results depend on the processing

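The SAT1 log2 ratio kept its direction in each line under each scaling and with the trend on GC content and length removed, which gave −4.99 in HCT116 and −2.88 in SW480; library size alone gave −2.60 in SW480. The ODC1 ratio in HCT116 was 1.11 with the authors' size factors, 0.73 with library size alone and 0.51 with the trend removed, and in SW480 library size alone gave −0.19. The change of the SAT1 to ODC1 ratio was −5.50 in HCT116 and −2.58 in SW480 with the trend removed. Its median over the lines, −2.41, ranged from −4.58 to −2.27 with 1 line left out. AMD1 (0.31) and SMOX (−0.68) reversed in HCT116 with the trend removed, and so did EIF5A2 (169% of control in HCT116, 128% in HT29) and DHPS (93.3% in HCT116). SAT2 in HCT116, whose interval held equality, went from 108% to 60.2% of control. AMD1 in SW480, whose interval held equality, went from 0.02 to −0.09. Of the members other than SAT1 and ODC1, library size alone moved 4 HCT116 values and 1 SW480 value by more than counting error. With the trend removed 6 HCT116, 3 HT29 and 2 SW480 values moved by more than counting error and kept their direction. The 2 HCT116 values that reversed, AMD1 and SMOX, lay outside their counting intervals as well. No member changed direction under the other scalings; library size alone moves the median of all genes in HCT116 to −0.36, from −0.06. The DESeq2 size factors, another transcript length and the trend removal for the OAZ1 pairs and the other polyamine genes were alternatives chosen after seeing the data. With the longest transcript of any type, SAT1 over ODC1 was 6.52 in the HCT116 control and 13.4 in the SW480 control.

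Over all genes limma called 0 lower and 0 higher (766 and 717 at an unadjusted p under 0.05), edgeR called 0 and 0, and DESeq2 called 134 lower and 110 higher. With 1 line left out limma called 27 (without HT29) to 151 (without HCT116) lower and 30 to 187 higher for the same lines, with 93 lower and 44 higher without SW480. Of the other polyamine genes DESeq2 called 2 lower, and leaving out a line gave 0 to 2, with 2 without HCT116; the cause was not tested. Without the pairing by cell line as a block limma called 0 genes, with a smallest adjusted p of 1.00. PAOX and SRM rest on few reads, which limits their ratios.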
